A study of Mus musculus with 8 samples.

Results

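The genes described here, Sst, Npy, Nos1, Calb2, Lhx6 and Gpr83, were listed as markers of striatal interneurons other than the parvalbumin and cholinergic kinds. Whether Gpr83 marks these cells was not tested here: it was lowest and highest on the same arrays as the medium spiny marker score, and it is described by its own values. They were chosen by symbol, and probes with a detection p below 0.05 on 4 or more of the 8 arrays entered the comparison. The 6 genes had 7 probes among 25697, and 6 of the 7 were kept, standing for 5 genes among the 10008 genes detected. Expression was measured on Illumina bead arrays, which give an intensity per probe, normalised here and put on the log2 scale. RNA came from the striatum of mice at postnatal day 30 on a C57BL/6 background, labelled PGC-1α null (4 arrays) or PGC-1α wild type (4 arrays). At issue is how striatal RNA differs without PGC-1α, a transcriptional coactivator of mitochondrial genes and the product of Ppargc1a. The labels name medium spiny neurons as the cell type, yet the source is striatal tissue, so every cell type of that tissue adds RNA. The title of the series names a deletion specific to medium spiny neurons, whereas the samples are labelled as null. The labels therefore leave unsettled which cells had lost the gene, and they name no promoter or Cre line.

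Most striatal neurons are medium spiny projection neurons, and interneurons are a small minority among them. One interneuron class makes somatostatin and neuropeptide Y and carries the neuronal nitric oxide synthase, so Sst, Npy and Nos1 are commonly read as markers of the same cells. Calretinin, the product of Calb2, marks another class, and Lhx6 encodes the LIM-homeodomain factor that specifies interneurons born in the medial ganglionic eminence. Since these cells are also found in cortex, tissue from outside the striatum can carry the same transcripts.

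Arrays gave mean raw intensities of 295 to 499 and 13009 to 13910 detected probes. The probe of Ppargc1a read 7.30, 8.09, 8.10 and 7.43 (log2) on null replicates 1 to 4 and 7.35, 7.22, 7.90 and 7.98 on wild-type replicates 1 to 4. The groups overlapped there (difference 0.12, SE 0.23, limma adjusted p = 0.94). The sources used here do not say where this probe lies relative to the deleted part, so its level is no check of the labels. The Y-linked Eif2s3y was at 9.14 to 9.49 on null replicates 1, 2 and 4 and wild-type replicate 2, and at 4.32 to 4.41 on the other 4 arrays. Xist, a transcript of female cells, was at 4.59 to 4.91 on the former and at 8.26 to 8.70 on the latter. By these 2 genes, null replicates 1, 2 and 4 and wild-type replicate 2 read as male, so sex was unbalanced between the groups. Ddx3y, also Y-linked, was detected on every array (9.64 to 11.24) and split them less clearly. All arrays lay on the same chip with the groups at separate positions, so position and group cannot be told apart. Whether each replicate was its own animal is not labelled, so the p-values cover only how these arrays vary, possibly for technical reasons. Medium spiny neuron markers were present on every array: Ppp1r1b, which encodes DARPP-32, was at 13.34 to 13.93 on null and at 13.95 to 14.25 on wild-type arrays.

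The promoter stretches of 3 markers are shown: Sst and Npy, which were highest on the same array, and Gpr83, whose groups did not overlap. Any link between these stretches and the measured levels was not tested. Each is the 120 bases just upstream of the annotated start, 5′ to 3′, from RefSeq (GRCm38.p6). Sst lies at chr16:23890845-23890964 on the minus strand, Npy at chr6:49822590-49822709 on the plus strand and Gpr83 at chr9:14860090-14860209 on the plus strand. Capitals mark a cAMP response element (TGACGTCA) or its shorter core (TGACG, or CGTCA on the other strand).
Sst: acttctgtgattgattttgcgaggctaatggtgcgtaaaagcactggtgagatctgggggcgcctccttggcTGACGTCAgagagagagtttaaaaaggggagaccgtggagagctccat
Npy: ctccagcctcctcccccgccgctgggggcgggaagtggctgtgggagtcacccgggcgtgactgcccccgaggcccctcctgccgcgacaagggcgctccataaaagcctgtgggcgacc
Gpr83: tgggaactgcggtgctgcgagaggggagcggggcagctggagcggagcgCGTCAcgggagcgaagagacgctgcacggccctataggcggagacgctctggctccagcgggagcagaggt

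The full element began at position -48 of the Sst promoter, where it overlaps 2 matches of the shorter core. It was in the 250 upstream bases of 1.55% of 32851 RefSeq windows. The shorter core was in 17.8% of windows, and those of Gpr83 (position -71) and Nos1 (position -130) each held it. The other motifs searched on both strands were TATAAA, in 12.4% of windows, and AAGGTCA, a binding sequence of the estrogen-related receptors that PGC-1α is known to coactivate, in 4.08%. Neither was found in a window listed for Sst, Npy, Nos1, Gpr83 or Lhx6. Calb2 is named only. A match describes the letters of a window, and binding was not measured.

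None of the 5 detected genes passed the threshold. With limma, 0 of 13413 probes passed an adjusted p of 0.05 (0% called), the smallest adjusted p was 0.59, and 926 probes (6.9%) had an unadjusted p under 0.05. Gpr83 was lower in null arrays without overlap, Calb2 averaged lower with wide overlap, and Sst, Npy and Nos1 differed by 0.12 or less on the log2 scale. Of the 5 genes 3 averaged lower in null arrays, against 51.5% of all 10008 genes, with a median difference of -0.12 against -0.01. The groups did not overlap for 1 of the 5, against 4.25% of all genes, and 2.75% of all genes lay lower in null arrays without overlap.

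Sst encodes the precursor of somatostatin, a peptide that inhibits release from many cells. Its probe read 11.84, 12.65, 11.87 and 11.98 (log2 intensity) on null replicates 1 to 4, against 12.29, 12.27, 12.32 and 11.95 on wild-type replicates 1 to 4. Null replicates 1, 3 and 4 and wild-type replicate 4 were low, while null replicate 2 stood above every other array, so the groups overlapped. The mean was 12.09 ± 0.38 in null and 12.21 ± 0.17 in wild-type arrays (SD, n = 4 each). The difference was -0.12 (SE 0.18, 95% interval -0.52 to 0.27, limma adjusted p = 0.90). An exact two-sided permutation test of the 2 means gave p = 0.51. The interval covers levels in null arrays from 0.698 to 1.21 times those in wild-type arrays. Without null replicate 2 the difference was -0.31 and with the cortical marker score as a covariate -0.26, neither past the threshold.

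Npy encodes neuropeptide Y, a cotransmitter of the somatostatin cells. It read 10.35, 11.46, 10.35 and 10.76 on null replicates 1 to 4, against 10.49, 10.77, 10.53 and 10.70 on wild-type replicates 1 to 4. The wild-type arrays lay within the range of the null arrays, and null replicate 2 was again the highest. The mean was 10.73 ± 0.52 in null and 10.62 ± 0.14 in wild-type arrays (SD, n = 4 each). The difference was 0.11 (SE 0.22, 95% interval -0.37 to 0.58, limma adjusted p = 0.94; exact permutation p = 0.86). Its sign turned without null replicate 2, to -0.14. It also turned with the cortical score (-0.24) or the Eif2s3y level (-0.076) as a covariate and with array weights (-0.026).

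Nos1 encodes the neuronal nitric oxide synthase, the source of nitric oxide in these cells. Its probe was dim, with raw intensities of 108 to 135 and detection p-values of 0.00501 to 0.0401. It read 4.94, 4.80, 5.30 and 5.58 on null replicates 1 to 4, against 5.07, 5.37, 4.98 and 5.11 on wild-type replicates 1 to 4. High and low arrays occurred in both groups, and the wild-type values lay inside the null range. The difference was 0.02 (SE 0.17, 95% interval -0.36 to 0.40, limma adjusted p = 0.98; exact permutation p = 0.91). A difference of this probe close to background is compressed on the log2 scale, and its sign was negative under 6 of the 20 alternatives that measured it.

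Calb2 encodes calretinin, a calcium-binding protein of the EF-hand family. The brighter of its 2 probes read 6.40, 7.74, 6.62 and 5.80 on null replicates 1 to 4, against 7.81, 7.16, 6.60 and 6.92 on wild-type replicates 1 to 4. Null replicate 2 was close to wild-type replicate 1, the highest array, and null replicate 4 was the lowest. The difference was -0.48 (SE 0.36, 95% interval -1.26 to 0.30, limma adjusted p = 0.80; exact permutation p = 0.37). The dimmer probe was detected on 6 arrays, 2 null and 4 wild-type, the fewest among the 6 probes of these genes. It read 4.95, 5.59, 4.76 and 4.73 on null and 5.48, 5.31, 5.17 and 5.01 on wild-type arrays. Its difference was -0.24 (SE 0.19, limma adjusted p = 0.81). The 4 wild-type arrays alone met the detection filter for this probe, so its difference is only a description. Both probes averaged lower in null arrays and followed each other over the 8 arrays (Pearson's r = 0.90, Spearman's rho = 0.86), as probes of the same gene that share every sample. Over alternatives the brighter probe ran from -0.84 (without null replicate 2) to -0.20 (without null replicate 4), and leaving out wild-type replicate 1 gave -0.25. With a score of pallidal, septal and thalamic neuron markers, computed without Calb2, as a covariate it was -0.22.

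Lhx6 could not be measured. Its probe was detected on 0 of the 8 arrays, with detection p-values of 0.175 to 0.915 and raw intensities of 84.0 to 120. It is not well above background in either group, and no difference is given.

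Gpr83 encodes a G protein-coupled receptor cloned from mouse cells as a transcript induced by glucocorticoids, and PEN, a peptide cut from proSAAS, was reported as its ligand. It read 10.50, 10.14, 10.91 and 10.75 on null replicates 1 to 4, against 11.30, 11.32, 11.59 and 10.92 on wild-type replicates 1 to 4. Every null array lay below every wild-type array, by 0.0081 between null replicate 3 and wild-type replicate 4. The mean was 10.57 ± 0.34 in null and 11.28 ± 0.27 in wild-type arrays (SD, n = 4 each), or 0.613 times the wild-type level in null arrays (95% interval 0.462 to 0.812). The difference of -0.71 (SE 0.19) had an unadjusted p of 0.00264, rank 49 of 13413 probes, and a limma adjusted p of 0.66, so it did not pass. An exact two-sided permutation test gave p = 0.0286, the smallest that 4 against 4 arrays allows. Groups that do not overlap always give that value, so it only restates the lack of overlap. Among all probes, 2.59% lay lower in null arrays without overlap. The gene was listed with earlier results of these data known, so this value is a description of its level.

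**Figure D1:**
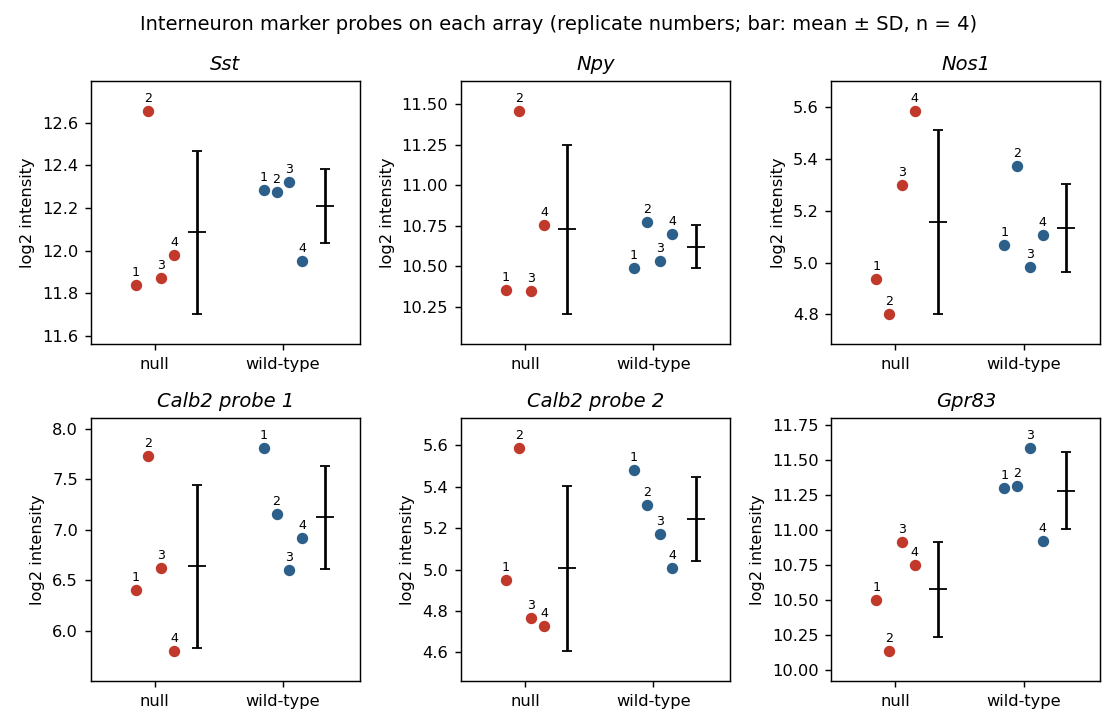
Each panel plots 1 probe, with log2 normalised intensity on the y axis, and each point is 1 array with its replicate number. Bars give mean ± SD of 4 arrays. Null replicate 2 is the highest null array for Sst, Npy and both Calb2 probes and the lowest for Gpr83, whose null values (10.14 to 10.91) all lie below the wild-type values (10.92 to 11.59).

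The difference of Gpr83 kept its sign under all 21 alternatives and passed under none. Leaving out 1 array moved it to between -0.83 and -0.56, the smaller size being that without null replicate 2. With the cortical score as a covariate it was -0.46 (adjusted p = 0.92), and with the Eif2s3y level -0.60 (adjusted p = 0.57). Scores of marker lists average the detected genes after each gene's log2 values are centred on 0. The score of 12 medium spiny neuron markers had its lowest value on null replicate 2 (-0.53), where Gpr83 was lowest, and 10 of the 12 genes had their lowest level there. Its highest value was on wild-type replicate 3 (0.34), where Gpr83 was highest. The score was -0.22, -0.53, 0.11 and -0.05 on null and 0.13, 0.19, 0.34 and 0.04 on wild-type replicates 1 to 4. It ordered the arrays as Gpr83 did, except that null replicate 3 and wild-type replicate 4 changed places. That score averaged -0.17 ± 0.28 in null and 0.17 ± 0.13 in wild-type arrays (SD, n = 4 each), and its part in the Gpr83 result was not tested. The cortical score was highest on null replicate 2 (1.27) and averaged 0.39 in null and -0.39 in wild-type arrays. In tissue RNA, fewer cells of a type, less RNA per cell and more RNA from neighbouring tissue cannot be told apart.

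**Figure D2:**
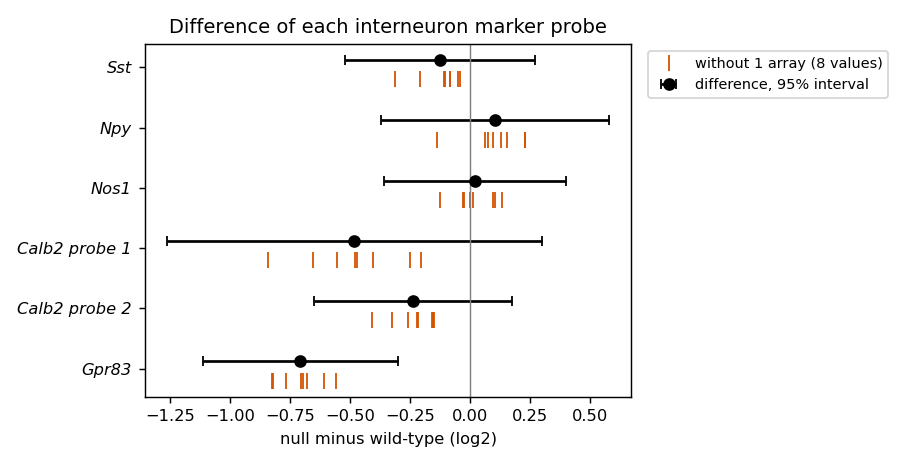
The x axis is the difference, null minus wild-type, on the log2 scale. Points and bars are the fit with its 95% interval, and ticks below them are the 8 values with 1 array left out. Gpr83 alone has an interval (-1.11 to -0.30) that leaves out 0, before any adjustment for the number of probes.

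The spread within groups differed between the markers. The brighter Calb2 probe had a pooled SD of 0.68, above that of 99.4% of kept probes, and Npy one of 0.38, above that of 92.5%. Gpr83 (0.31), Sst (0.30) and Nos1 (0.28) were nearer to the median of all probes, 0.21. For Npy the null arrays varied with an SD of 0.52 and the wild-type arrays with 0.14.

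Levels of the markers were then compared across the 8 arrays in 10 pairs of genes, and 0 pairs passed after Benjamini-Hochberg adjustment. Sst and Npy had a Pearson's r of 0.75 (exact permutation p = 0.0310, adjusted p = 0.278) and a Spearman's rho of 0.62 (exact permutation p = 0.115, adjusted p = 0.832). Without null replicate 2 alone r was 0.33 (n = 7), and with group means removed on all 8 arrays 0.81 (permutation adjusted p = 0.227). Without the 2 arrays farthest from the median of Sst, null replicates 1 and 2, r was 0.10. Leaving them out narrows the range of Sst, and the relation over 8 arrays depended on those arrays. Sst and Calb2 had an r of 0.70 and a rho of 0.52 (exact permutation p of 0.0556 and 0.197, adjusted p of 0.278 and 0.832), and r was 0.52 without the same arrays. Nos1 had an r of -0.45 and a rho of -0.31 with Sst (exact permutation p of 0.259 and 0.462, adjusted p of 0.518 and 0.832), and r was -0.45 without the same arrays. With Npy its r was -0.24 and its rho 0.05 (exact permutation p of 0.573 and 0.935, adjusted p of 0.716 and 0.935), and r was 0.83 without null replicates 2 and 3. The remaining pairs had adjusted p-values of 0.477 or more for r by exact permutation. Sst and Gpr83 had an r of -0.02 and a rho of 0.24 over the 8 arrays (exact permutation p of 0.967 and 0.582), and r was 0.91 without null replicates 1 and 2. Without null replicate 2 that pair had an r of 0.93 (exact permutation p = 0.00437, adjusted p = 0.0437, n = 7). With group means removed as well, a setting chosen after seeing the data, r was 0.80 (permutation adjusted p = 0.139), so the call was lost. That permutation moved centred values between the groups, so its p is approximate and cannot settle whether the pair varied together within groups.

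Null replicate 2 held the highest level of some interneuron and cortical genes and the lowest of others. It was the highest of the 8 arrays for 3 of 7 co-markers, 2 of 6 markers of further interneuron classes and 5 of 7 cortical genes. It was the lowest for 1, 1 and 0 of them. In other lists it was highest for 4 of 8 astrocyte and 3 of 8 calcium-binding protein genes, and lowest for 1 and 2. It was lowest for 10 of 12 medium spiny and 7 of 10 cholinergic genes, and highest for 0 of either. Null replicate 2 had the lowest array weight (0.51), and how often it was extreme over all genes was not counted. Among the 5 detected markers it was highest for Sst and Npy and lowest for Nos1 and Gpr83. Cort, the gene of the somatostatin-like peptide cortistatin, read 6.36, 9.17, 6.73 and 6.67 on null and 4.97, 6.38, 6.85 and 7.41 on wild-type replicates 1 to 4. Vip, the gene of vasoactive intestinal peptide, read 7.27, 8.71, 5.97 and 6.89 on null and 5.27, 6.69, 5.65 and 7.18 on wild-type arrays. Vip is named after its values were seen. Cck, which encodes cholecystokinin, a peptide of cortical interneurons and pyramidal cells, read 10.06, 11.63, 9.72 and 10.40 on null and 7.69, 9.67, 8.96 and 10.12 on wild-type arrays. For Cort, Vip and Cck null replicate 2 was the highest and wild-type replicate 1 the lowest array, and neither Sst nor Npy was lowest on wild-type replicate 1.

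Of 10 listed genes of cortical excitatory neurons 7 were detected, and all 7 averaged higher in null arrays (median 0.71, 0 past the threshold). Slc17a7, which encodes a transporter that loads glutamate into vesicles, read 8.65, 10.46, 8.11 and 8.89 on null and 4.97, 8.53, 7.66 and 8.80 on wild-type arrays. Slc17a7 differed by 1.54 (SE 0.73) and Tbr1 by 1.06 (SE 0.52), and without wild-type replicate 1 by 0.70 and 0.60. Neurod2 differed by 0.33 (SE 0.27), and by 0.016 without null replicate 2. The list score was 0.27, 1.27, -0.28 and 0.31 on null replicates 1 to 4 and -1.34, 0.06, -0.47 and 0.20 on wild-type replicates 1 to 4. With the cortical score as a covariate Cort differed by -0.35, Vip by -0.11 and Cck by 0.25. The part of cortical RNA in the Sst and Npy levels was not tested beyond that covariate.

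**Figure D3:**
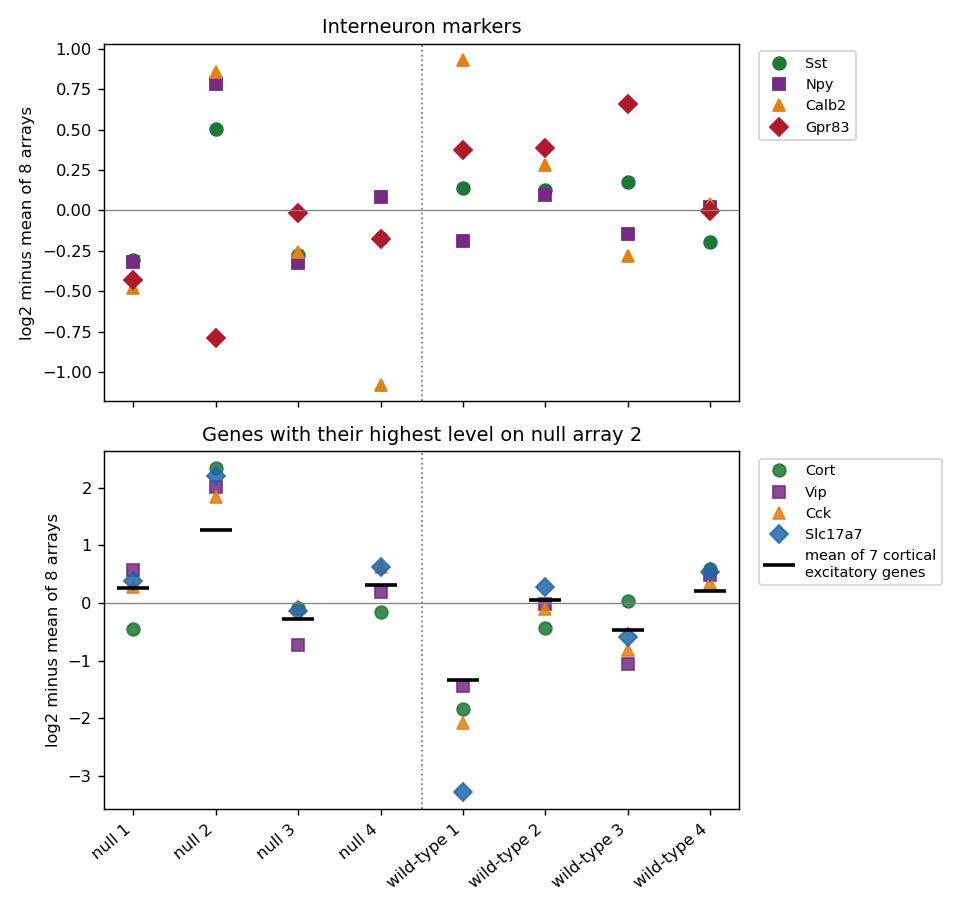
Both panels give log2 intensity minus the mean of the 8 arrays, with the null arrays left of the dotted line and the wild-type arrays right of it. Sst, Npy, Cort, Vip, Cck and Slc17a7 are highest on null replicate 2, where the mean of 7 cortical excitatory genes is 1.27 and Gpr83 is lowest.

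The parvalbumin gene showed another pattern over the arrays. Pvalb read 9.52, 6.43, 5.11 and 9.87 on null replicates 1 to 4, against 9.02, 9.26, 5.74 and 5.28 on wild-type replicates 1 to 4. Both groups thus held high and low arrays (difference 0.41, SE 1.13, limma adjusted p = 0.96), and the array with the highest Sst, Npy and Cort was among the lower ones for Pvalb. The 5 detected genes of the parvalbumin list had a median difference of -0.05, with 3 lower in null arrays.

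Genes known from other brain regions to accompany Sst and Nos1 went both ways. Of 8 listed co-markers 7 were detected, 5 averaged lower and 2 higher in null arrays, the median was -0.07 and 0 passed. Chodl, which encodes chondrolectin and marks the cortical somatostatin cells that express Nos1, read 5.83, 5.81, 6.33 and 5.89 on null and 6.69, 6.23, 6.21 and 6.29 on wild-type arrays. Only null replicate 3 reached into the wild-type range, and the difference was -0.39 (SE 0.16, limma adjusted p = 0.71, unadjusted p = 0.030). Crhbp, the gene of the binding protein for corticotropin-releasing hormone, differed by 0.41 (SE 0.39), and by -0.0029 without null replicate 2.

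Among receptors, 1 of 5 somatostatin receptor genes and 3 of 5 NPY receptor genes were detected, and none passed. Sstr5 read 4.71, 4.33, 4.31 and 5.41 on null and 5.40, 5.45, 5.11 and 5.15 on wild-type arrays. It was detected on 1 null and 4 wild-type arrays, so it was kept through the wild-type group, and no test of it is read. Its difference was -0.59, and it was -0.18 without background correction and -0.33 on the authors' processed values. The NPY receptor gene Npy5r differed by -0.32 (SE 0.14) and Npy2r, which is also a co-marker, by -0.46 (SE 0.25), while the median of the 3 receptors was -0.32.

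Somatostatin and NPY are cut from precursors and stored in granules, and 8 of 10 genes of that machinery were detected. In null arrays 7 of the 8 averaged lower (median -0.12), 0 passed, and 2 had groups that did not overlap, against 51.5% of all genes lower and 2.75% lower without overlap. Scg2, which encodes the granule protein secretogranin II, read 10.28, 10.65, 10.39 and 10.12 on null and 11.27, 11.09, 10.99 and 10.84 on wild-type arrays. Vgf, a precursor of several secreted peptides, differed by -0.63 (SE 0.14). Pcsk1n, which encodes proSAAS, the precursor of the peptide reported to act on Gpr83, was the only one of the 8 to average higher, by 0.16 (SE 0.16), and is named after its values were seen.

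The nitric oxide and cyclic GMP pathway held genes in both directions. Of 17 listed genes 14 were detected, 8 averaged lower and 6 higher in null arrays, and the median was -0.04. Nos1ap, which encodes an adaptor of the neuronal synthase, differed by 0.46 (SE 0.25), and Ddah2, whose product breaks down an inhibitor of the synthase, by 0.28 (SE 0.12). Pde1b, a phosphodiesterase abundant in medium spiny neurons, differed by -0.32 (SE 0.14) and the cyclic GMP-dependent kinase gene Prkg1 by -0.37 (SE 0.20). None of the 14 passed, and 2 had an unadjusted p under 0.05, against 6.96% of all genes.

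Of 21 transcription factors of interneuron development 10 were detected, and 7 averaged lower in null arrays (median -0.18, 0 past the threshold). Nkx2-1, which acts upstream of Lhx6, read 6.07, 5.82, 6.41 and 6.53 on null and 7.04, 6.43, 6.74 and 6.50 on wild-type arrays, with overlap. Its difference was -0.47 (SE 0.18, limma adjusted p = 0.71), and with the cortical score as a covariate -0.17. Lhx8, a factor of cholinergic interneurons, differed by -0.45 (SE 0.17) and Etv1 by -0.33 (SE 0.13). Of the 10 detected factors 5 had an unadjusted p under 0.05, against 6.96% of all genes. Among these 5 factors, 4 averaged lower and 1, Satb1, higher, by 0.51 (SE 0.22). Satb1 is named after its values were seen. Dlx5, among the 4, was detected on 1 null and 3 wild-type arrays, so it was kept mostly through the wild-type group. It is counted there, but no test of it is read. Its difference was -0.32, against -0.022 on the authors' processed values.

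The 11 markers of further interneuron classes had 6 detected members, 3 lower and 3 higher, and 0 passed. Pthlh, the parathyroid hormone-related peptide gene, differed by -0.43 (SE 0.15), Reln, the gene of the secreted protein reelin, by -0.41 (SE 0.15) and Th, which encodes tyrosine hydroxylase, by -0.58 (SE 0.25). Cck differed by 1.34 (SE 0.49) and Vip by 1.01 (SE 0.53). The calcium-binding protein genes listed beside Calb2 had 8 detected members with a median of 0.15, which turned to -0.085 without wild-type replicate 4 and -0.073 with the Eif2s3y level as a covariate. Among them were Freq (now Ncs1) at -0.43 (SE 0.17) and Ncald at 0.67 (SE 0.33). Neither passed, and Ncald turned to -0.037 with the cortical score as a covariate.

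Beside these markers stand the other interneuron and cell type lists. All 10 detected cholinergic genes averaged lower (median -0.49), 4 of them without overlap against 2.75% of all genes, and 0 passed. Those of smallest p were Tacr3 at -0.58 (SE 0.11) and Ecel1 at -0.63 (SE 0.16), both without overlap. Chat was at -0.55 (SE 0.22) without overlap, and Slc18a3 at -0.30 (SE 0.21) and Slc5a7 at -0.29 (SE 0.21) with overlap. Chat, Slc18a3 and Slc5a7 are named after their values were seen. All 5 detected genes of GABA synthesis and transport averaged lower (median -0.38), 1 of them without overlap. That gene was Slc32a1, the vesicular transporter that interneurons share with medium spiny neurons, at -0.51 (SE 0.14). Slc6a11 differed by -0.39 (SE 0.16) and Gad1 by -0.38 (SE 0.16), and 0 passed. Of the medium spiny list 12 of 12 detected genes averaged lower (median -0.31), 2 of them without overlap. Over all genes 51.5% averaged lower, and 2.75% lay lower without overlap. Ppp1r1b was at -0.43 (SE 0.14), Rgs9 at -0.27 (SE 0.16) and Pde10a at -0.30 (SE 0.19). Medians were 0.15 for oligodendrocyte, 0.21 for astrocyte, -0.20 for endothelial and mural, 0.02 for microglial and -0.28 for pallidal, septal and thalamic genes. Of 10 oligodendrocyte genes 9 averaged higher in null arrays, and 1, Cnp, lay higher without overlap (0.48, SE 0.20), against 1.5% of all genes. Cnp is named after its values were seen. The oligodendrocyte median turned to -0.030 without wild-type replicate 3, the astrocyte one was 0.093 without null replicate 2 and the pallidal one -0.12 without wild-type replicate 1. Without null replicate 2 the medium spiny median was -0.16 and the GABA one -0.24. With the cortical score as a covariate the GABA median was -0.17, and without background correction the cholinergic one was -0.17.

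**Figure D4:**
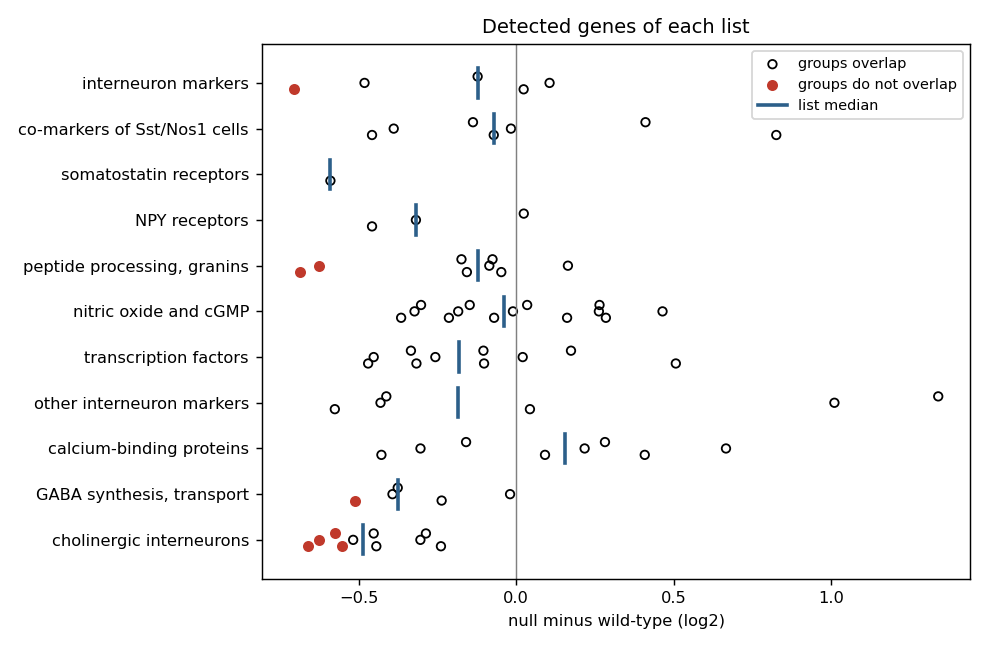
Each point is a detected gene (its brightest probe) of the markers, their 8 related lists, the GABA list or the cholinergic list, placed by its difference, null minus wild-type, on the log2 scale. Filled points are genes whose groups do not overlap and vertical lines are list medians. Gpr83, Scg2, Vgf, Slc32a1 and 4 cholinergic genes are the filled points of these lists, and none of the genes shown passed over all probes. Of all 10008 genes, 4.25% had groups that did not overlap, and 2.75% lay lower in null arrays without overlap.

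The genes whose levels followed each marker most closely over the 8 arrays were picked from 10008 genes by Pearson's r, as a description. Nearest to Sst were Cd200 (r = 0.98, rho = 0.81), Tmub1 (r = 0.98, rho = 0.83) and Statip1, now Elp2 (r = 0.96, rho = 0.79). Nearest to Npy were Syt1 (r = 0.97, rho = 0.88), Slitrk1 (r = 0.96, rho = 0.95) and Dok5 (r = 0.95, rho = 0.86). Nearest to Nos1 were Trrap (r = 0.95, rho = 1.0), Cnot6l (r = 0.94, rho = 0.90) and Sidt2 (r = 0.94, rho = 0.98). Nearest to Calb2 were Gja7, now Gjc1 (r = 0.96, rho = 0.98), Dcakd (r = 0.95, rho = 0.90) and Arf6 (r = 0.95, rho = 0.90).

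Nearest to Gpr83 were Osbpl2 (r = 0.99, rho = 0.95), Dclk3 (r = 0.98, rho = 0.93) and Rbms3 (r = 0.98, rho = 0.95). Since r was taken over both groups, the choice fixes that they differ the same way as Gpr83, and no test of them is read.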

How the data were processed

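Per the labels' protocols, frozen striatum was taken through Trizol isolation, and the RNA was turned into cRNA carrying biotin; GenomeStudio is named in the submitters' processing notes. Per the file headers, the deposited table holds a mean intensity per probe, not normalized between arrays, and a deposited detection p-value per probe and array. The authors' processed intensity values (median 14.9 to 15.0 on each array, 23.1% below 0) served as an alternative; how they were made is not stated in the labels.

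Raw intensities were processed with neqc in limma 3.58.1 (R 4.3.3): background from the detection p-values, offset 16, quantile normalization, log2. Of 25697 probes 13413 were kept. Null minus wild-type was fitted on all 8 arrays with lmFit and eBayes, two-sided, and p-values were adjusted by Benjamini-Hochberg across the kept probes. A gene is its kept probe with the highest mean. A list score is the mean over detected genes of log2 values centred per gene. The fit was tested on simulated data. The number of arrays limits the precision (median SE 0.15).

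Members and lists were chosen with earlier results of these data known. The naming rule took the members, 3 nearest genes each, up to 4 genes of smallest p per list and the first 3 detected medium spiny and cortical genes. Pairs of members were compared by exact permutation, which is only approximate where group means were removed. Since Lhx6 was not detected, 10 pairs could be formed. Probe sequences were not used here.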

Additional observations from a re-analysis of the deposited data

Results flagged for a closer look

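Within groups of 4 arrays, 9 values stood apart from the other 3 of their group by a gap test at the 95% level, out of 82 groups looked at (1 in 20 would by chance). Sst was at 12.65 on null replicate 2, where the next null array was at 11.98, and at 11.95 on wild-type replicate 4, where the next wild-type array was at 12.27. Chodl was at 6.33 on null replicate 3 and at 6.69 on wild-type replicate 1, each the highest of its group. Cort was at 9.17 and Vgf at 9.14 on null replicate 2, both the highest, and Gad1 was at 11.40 there, the lowest. Crhbp was at 6.60 on wild-type replicate 1, the lowest, and Ddah2 at 6.82 on null replicate 3, the lowest.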

How the results depend on the processing

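The alternatives were the replicate block, 4 other normalizations or value sources, 3 detection filters, array weights, robust moderation, marker scores or the Eif2s3y level as covariates, and 1 array left out; the pallidal score and Eif2s3y covariates were chosen after seeing the data. No marker and no probe passed under any of them, the lowest adjusted p of any probe being 0.054 (without null replicate 4). The labels state no pairing by replicate number. Same-numbered arrays had correlations of their deviations of -0.004 to 0.23. They were not compared with differently numbered arrays, so they cannot settle whether the numbers pair samples. Under the replicate block the count of probes past the threshold was 0. The differences were those given above, since the block is balanced. Without 1 array the differences ran from -0.31 to -0.04 for Sst, -0.14 to 0.23 for Npy, -0.12 to 0.14 for Nos1, -0.84 to -0.20 and -0.41 to -0.15 for the Calb2 probes and -0.83 to -0.56 for Gpr83. Npy turned to -0.026 with array weights, -0.24 with the cortical score and -0.076 with Eif2s3y. Nos1 turned to -0.012 with cyclic loess, -0.023 with median centring and -0.00954 with Eif2s3y. With the cortical score Cort turned to -0.35, Crhbp to -0.41, Vip to -0.11, Ncald to -0.037, Slc17a7 to -0.064, Tbr1 to -0.094 and Neurod2 to -0.14; Slc17a7, Tbr1 and Neurod2 are among the 7 genes of that score, so their change is built in. Pvalb turned to -1.23 with Eif2s3y and ran from -0.31 to 1.29 without 1 array, and Crhbp from -0.0029 (without null replicate 2) to 0.64. The count of marker pairs past the threshold was 1 without null replicate 2 and 0 under the other 12 of the 13 alternatives it was run for. The cause of the other changes was not tested. Without background correction the differences of dim probes shrank, to -0.06 for the dimmer Calb2 probe. That probe gave no value when detection on all 8 arrays was required, nor did Nos1 at a detection p under 0.01. Both lie near background, where differences are compressed.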
